A study of Mus musculus with 6 samples.

Results

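The genes described here are the nuclear genes for subunits of the mitochondrial respiratory chain (complexes I to IV) and of ATP synthase (complex V). They were taken by symbol, as every probe set annotated with a single symbol that begins with Nduf, Sdha to Sdhd, Uqcr, Cox4 to Cox8 or Atp5. The rule found 87 of the 12393 genes that the array names singly, on 160 of its 22626 probe sets. Of these, 148 probe sets of 84 genes were measured, meaning a signal over 53.5, the floor set at the 40th percentile of all signals, on at least 2 of 6 arrays. Complex I had 65 measured probe sets, complex II 7, complex III 15, complex IV 26 and complex V 26, and 9 came from assembly factors that share the symbols (Ndufaf and Sdhaf genes).

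The RNA came from dendritic cells, which show antigen to T cells, cultured from bone marrow of mice transgenic for CAR, the receptor that lets adenovirus enter. All 6 groups carry the transgene. The protocol describes a single female donor 13 weeks old, with 7 days of expansion of progenitors and then 7 days of differentiation in GM-CSF at 250 U/ml. The untreated group had neither virus nor cytokine, and the TNFa group had 4 h of the cytokine TNFa at 50 ng/ml. The AdOVA group had the control adenovirus at 1500 particles per cell for 2 h, then 18 h of culture, and the AdOVA+TNFa group had that virus followed by TNFa. The AdIkBa-SR and AdIkBa-SR+TNFa groups had, in the same way, an adenovirus that carries the super-repressor of IkBa, a form that resists breakdown and so holds the transcription factor NF-kB inactive. Each group has 1 Affymetrix MOE430A array, no mock transduction is recorded, and nothing states that groups were separate cultures. Differences between single arrays therefore have no replicate check. The p-values measure only the spread that the fit leaves among the arrays without AdIkBa-SR, because it matches both AdIkBa-SR arrays exactly.

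The respiratory chain passes electrons from NADH (through complex I) or succinate (through complex II) to coenzyme Q, on through complex III and cytochrome c to complex IV, and so to oxygen. Complexes I, III and IV pump protons across the inner mitochondrial membrane, and ATP synthase lets them flow back to make ATP. Complex II is also an enzyme of the citrate cycle and pumps no protons. In dendritic cells, activation through inflammatory receptors is known to shift metabolism from respiration to glycolysis.

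Trimmed mean signals were 198.5 to 198.7 on the 6 arrays and median signals 74.4 to 88.5. Of 10 dendritic cell markers, 9 were measured (Itgax among them) and Flt3 was not, and no T cell marker was measured. Granulocyte markers were measured for 9 of 10 genes, macrophage markers for 6 of 6 and mast cell or basophil markers for 6 of 6. The cultures thus also held transcripts on the granulocyte, macrophage and mast cell or basophil lists. Also measured were 2 of 4 B cell, 1 of 3 NK cell, 1 of 4 erythroid and 2 of 4 fibroblast markers. The B and NK cell ones lay near the floor, and the fibroblast marker Dcn read 103 to 345. The untreated, TNFa and AdOVA arrays share an earlier recorded hybridization time and the other arrays a later one. The AdIkBa-SR array was washed by another protocol, with 0 recorded cycles in each wash instead of 10 and 4, and a first stain of 420 s instead of 600 s. The AdOVA+TNFa array stands apart in the 18S ribosomal RNA control, whose 5′ probe set read 2601 there and 120 to 537 on the others. The ratio of the 3′ to the 5′ beta-actin probe set, a sign of RNA integrity, was 1.38 on that array and 1.09 to 1.84 on the others.

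Transcripts of the respiratory chain were lower on the TNFa array and on the AdOVA array than in untreated cells, lowest on the array with both, and close to untreated with AdIkBa-SR. On the log2 scale, where 1 unit is a 2-fold difference, the median of the 148 member probe sets over untreated was -0.52 on the TNFa array, -0.46 on the AdOVA array and -1.17 on the AdOVA+TNFa array. On the AdIkBa-SR and AdIkBa-SR+TNFa arrays it was -0.15 and -0.18. The medians of all 14902 measured probe sets stayed between -0.01 and 0.10 on the same arrays. The AdOVA+TNFa array held the lowest of the 6 signals for 109 members (73.6%), against 18.4% of all measured probe sets. The untreated array held the highest signal for 80 members (54.1%), against 12.4%. Wherever 6 signals of a gene are given in a row, they stand for untreated cells, TNFa, AdOVA, both of these together, then AdIkBa-SR alone and AdIkBa-SR with TNFa. In bulk RNA of a culture, fewer cells of a type and less RNA per cell cannot be told apart.

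**Figure D1:**
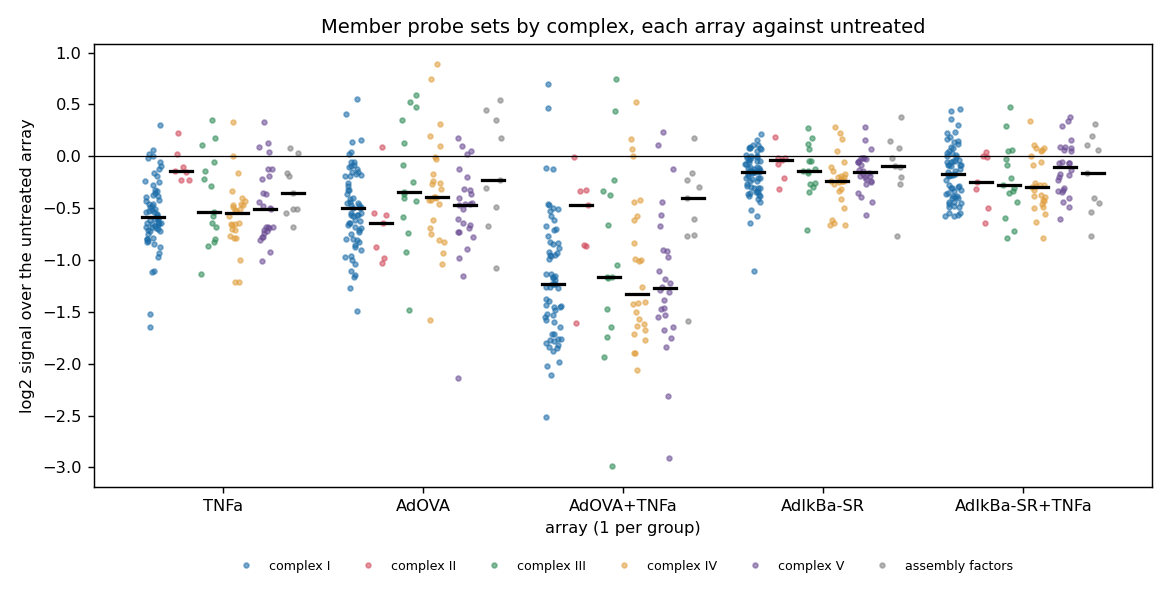
Log2 signal of each member probe set over its signal on the untreated array (vertical axis), for the 5 other arrays (horizontal axis), coloured by complex. Each point is 1 probe set and each black bar the median of its complex. Medians of complexes I, III, IV and V lie between -1.16 and -1.33 on the AdOVA+TNFa array and between -0.10 and -0.29 on the 2 AdIkBa-SR arrays, while that of complex II is -0.14 on the TNFa array and -0.47 on the AdOVA+TNFa array.

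Complexes I, III, IV and V had similar medians. Their medians over untreated were -0.58, -0.54, -0.55 and -0.50 on the TNFa array, and -1.23, -1.16, -1.33 and -1.27 on the AdOVA+TNFa array. Complex II had -0.14 on the TNFa array, -0.65 on the AdOVA array and -0.47 on the AdOVA+TNFa array over its 7 probe sets. Its lowest signals were on the AdOVA array for 4 of 7 probe sets, where complexes I, III, IV and V had theirs on the AdOVA+TNFa array for 52 of 65, 11 of 15, 20 of 26 and 20 of 26. The assembly factors, which help build complexes I and II without staying in them, had medians of -0.36, -0.24 and -0.39 on those arrays. These differences between complexes were not tested.

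The first comparison sets the AdOVA arrays against the arrays without virus. For cells without virus, neither a 2 h exposure step nor the 18 h of later culture is recorded. A difference with AdOVA thus covers the virus, its handling and that culture time together, and their separate parts were not tested. Of the 148 members, 112 (75.7%) were lower with AdOVA both without TNFa (AdOVA against untreated) and with it (AdOVA+TNFa against TNFa), where 28.0% of all measured probe sets were. These pairs share no array. The members' median log2 difference was -0.46 in the first pair and -0.60 in the second, against 0.01 and 0.07 for all measured probe sets. In the first pair 123 members (against 46.7% of all measured probe sets) lay below 0 and 14 were at least 2-fold lower (against 4.46%), and in the second 124 (against 42.9%) and 34 (against 4.95%). Only 3 members, Ndufb5, Uqcr11 and Atp5g1, were at least 2-fold lower in both (against 1.37%). The first pair lies within 1 hybridization time, and the second spans both. With limma, a linear model fitted across all measured probe sets and all 6 arrays, 25 members of 21 genes fell with AdOVA at a Benjamini-Hochberg adjusted p under 0.05 and 0 rose. That is 16.9% of members, where 3.62% of all measured probe sets fell and 3.78% rose. The count rests on few arrays and on the floor. It was 2 without the AdOVA+TNFa array, 40 without the AdIkBa-SR array, 0 with every probe set kept whatever its signal, and 0 with the hybridization time as a block. Leaving out the AdIkBa-SR array keeps the fitted AdOVA differences and changes only the filter and the spread pooled over probe sets. The block fits the AdOVA+TNFa array exactly, so for AdOVA it nearly repeats leaving that array out. Among probe sets over the floor on all 6 arrays, 109 of 139 members (78.4%) were lower in both pairs, against 32.0% of 11002.

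In complex I, 12 probe sets of 9 genes fell with AdOVA. Ndufb5, an accessory subunit of the membrane arm, had a signal of 457 in untreated cells, 263 after TNFa, 189 after AdOVA and 80.2 after AdOVA+TNFa, against 337 and 325 on the AdIkBa-SR arrays without and with TNFa. Both AdOVA arrays were below every other array. Its fitted log2 difference for AdOVA was -1.50 ± 0.29 (SE, limma adjusted p = 0.0041), and its brighter probe set, at 723, 474, 414, 208, 627 and 554, also fell (adjusted p = 0.022). Ndufv2, a core subunit that carries an iron-sulphur cluster in the NADH-oxidising arm, read 688, 582, 441, 246, 732 and 705, a fitted difference of -0.94 ± 0.25 (limma adjusted p = 0.030). Of the core subunits, Ndufv2 was called, by 2 of its 3 probe sets. Ndufb2 and Ndufc1, which encode accessory subunits, fell only by their dimmer probe sets (brightest, limma adjusted p = 0.18 and 0.14). The other genes that fell also encode accessory subunits: Ndufa8, Ndufa12, Ndufb10, Ndufb11 and Ndufc2. Of these, Ndufb10 read 356, 194, 161, 99.6, 282 and 346 and Ndufb11 825, 560, 565, 203, 821 and 640, with limma adjusted p = 0.036 and 0.027. For both, the AdIkBa-SR arrays were close to or little below untreated. Among the genes at the other end, Ndufb9 read 1193, 743, 1114, 841, 1201 and 1401 and Ndufs7, a core iron-sulphur subunit, read 503, 321, 401, 328, 385 and 443. Neither passed the test (limma adjusted p = 0.94 and 0.77), and for both the TNFa array rather than the AdOVA array was the lower of the single treatments.

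The catalytic part of complex II, the flavoprotein Sdha and the iron-sulphur protein Sdhb, sits in the matrix, and Sdhc and Sdhd anchor it in the membrane. Sdhd read 1065, 963, 538, 350, 922 and 753. The AdOVA arrays were the lowest, and the fitted difference was -1.22 ± 0.24 (limma adjusted p = 0.0052). Its second, dimmer probe set read 216, 184, 230, 171, 210 and 174, with no such pattern. Sdhb read 1145, 1063, 732, 630, 1133 and 962 and Sdhc read 618, 556, 423, 447, 612 and 618, both lowest on the AdOVA arrays without passing the test (limma adjusted p = 0.077 and 0.30). Sdha read 738, 864, 499, 736, 838 and 735, so that the AdOVA array without TNFa alone was low.

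Complex III joins a pair of large core proteins (Uqcrc1, Uqcrc2) and the Rieske iron-sulphur protein (Uqcrfs1) to several small subunits. Uqcr11, a small subunit, had a signal of 425 in untreated cells, 193 after TNFa, 152 after AdOVA and 37.7 after both, and of 334 and 418 on the AdIkBa-SR arrays. The AdOVA+TNFa value was under the floor, so the signal was at least 3.6-fold lower than with TNFa alone, and the AdIkBa-SR+TNFa value was at least 7.8-fold above it. The fitted difference for AdOVA was -1.66 ± 0.30 (limma adjusted p = 0.0024). Uqcrb, the ubiquinone-binding small subunit, also fell by 1 of its 2 probe sets, which read 695, 445, 464, 182, 728 and 513 (-0.94 ± 0.26, limma adjusted p = 0.036). Its brighter probe set read 5584, 3470, 4698, 1668, 4683 and 5262 and did not pass (adjusted p = 0.19). Uqcrc1 had its lowest signal on the AdOVA array (392, against 571 to 907 elsewhere). Uqcrc2 read 715, 807, 674, 451, 776 and 565 and Uqcr10 read 866, 497, 948, 384, 794 and 700, both lowest on the AdOVA+TNFa array. Uqcrc2, Uqcr10 and Uqcrc1 did not pass for AdOVA (limma adjusted p = 0.29, 0.81 and 0.14).

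Complex IV is the terminal oxidase, and its subunits in the nucleus surround a catalytic core made from mitochondrial DNA. Cox5a read 3687, 2132, 1927, 884, 3442 and 2740. All 3 of its probe sets were lowest on the AdOVA+TNFa array, and 2 of them fell with AdOVA (brightest -1.10 ± 0.25, limma adjusted p = 0.014). Cox4i1, the usual isoform of the largest of these subunits, read 2320, 1426, 1129, 878, 1953 and 1910 and fell (-0.87 ± 0.24, limma adjusted p = 0.037). Cox6c fell by its dimmer probe set, which read 1571, 679, 527, 422, 1623 and 912 (-1.13 ± 0.26, limma adjusted p = 0.013). Its brighter one, at 3557, 2566, 2588, 1085, 3006 and 2891, did not pass (adjusted p = 0.065).

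The isoforms of complex IV known from other tissues were dim. Cox4i2, the isoform of lung, read 124, 51.6, 154, 130, 93.4 and 88.2, and Cox8c, an isoform of testis, read 208, 261, 385, 299, 253 and 263. Both were highest on the AdOVA array, although neither passed the test (limma adjusted p = 0.16 and 0.26). Cox6a2, the muscle isoform, read 95.2, 69.2, 159, 52.9, 111 and 69.1, near the floor on the AdOVA+TNFa array. Cox7a1 and Cox8b, also muscle isoforms, and Cox6b2 had no probe set over the floor on any array. Cox7c, a usual subunit, was over it on 2 arrays only (40.7, 37.2, 61.4, 38.8, 60.1 and 20.1), so no difference could be read for it. Of the usual isoforms, Cox6a1 read 6862, 4400, 5802, 2143, 6610 and 4863, Cox7a2 read 3793, 2874, 3714, 1237, 3443 and 3112, and Cox8a read 2169, 1273, 1644, 813, 1719 and 1679. These 3 were lowest on the AdOVA+TNFa array and did not pass for AdOVA (limma adjusted p = 0.22, 0.22 and 0.20). Cox7a2l, which takes part in joining complexes into supercomplexes, varied little, between 769 and 1089. Ndufa4, counted with complex I by its symbol but now held to be a subunit of complex IV, read 549, 367, 557, 202, 581 and 607.

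ATP synthase consists of a catalytic head (F1), a ring of c subunits that turns in the membrane, a stalk that holds the head still, and small membrane subunits. Atp5g1, 1 of 3 genes for the c subunit, read 555, 390, 249, 73.9, 505 and 410. Both AdOVA arrays lay below all others, 5.3-fold below TNFa alone in the case of AdOVA+TNFa, and the fitted difference was -1.78 ± 0.30 (limma adjusted p = 0.0017). Atp5g2, another c-subunit gene, read 1010, 626, 610, 299, 684 and 794 and fell (-0.90 ± 0.24, limma adjusted p = 0.031). Atp5b, the catalytic beta subunit of the head, read 1749, 1861, 398, 1098, 1686 and 1853. It was low on both AdOVA arrays but 2.8-fold higher on the one with TNFa, and its fitted difference for AdOVA was -1.45 ± 0.29 (limma adjusted p = 0.0053). Its partner in the head, the alpha subunit Atp5a1, read 1515, 1557, 1565, 1785, 1433 and 1289 with its highest value on the AdOVA+TNFa array. Atp5mpl, a small membrane subunit, read 1108, 784, 1124, 818, 968 and 962, and neither passed (limma adjusted p = 0.81 and 0.94). Of the stalk, Atp5h fell by 1 of 2 probe sets (1411, 844, 906, 284, 1225 and 1252) and Atp5o by its brighter one (817, 714, 439, 312, 739 and 539), with limma adjusted p = 0.015 and 0.014. Atp5e, a small subunit of the head, fell as well (913, 571, 567, 291, 786 and 873, limma adjusted p = 0.044).

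**Figure D2:**
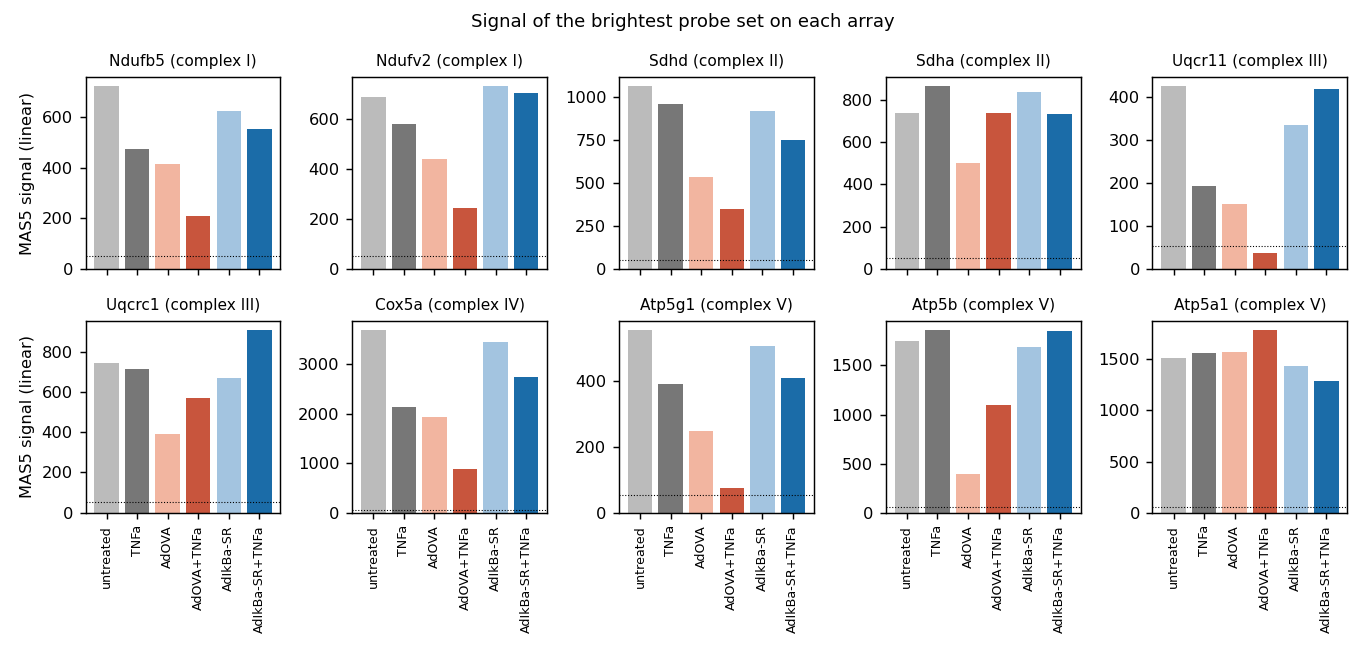
MAS5 signal on a linear scale (vertical axes, each from 0) of the brightest probe set of 10 member genes on the 6 arrays (horizontal axis, 1 bar per array). The dotted line is the floor of 53.5. Ndufb5, Ndufv2, Sdhd, Uqcr11, Cox5a and Atp5g1 have their lowest bar on the AdOVA+TNFa array, Sdha, Uqcrc1 and Atp5b on the AdOVA array, and Atp5a1 varies between 1289 and 1785.

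None of the assembly factors passed a test. Ndufaf4, a factor for complex I, read 213, 133, 101, 70.7, 186 and 147, Ndufaf1 read 161, 126, 137, 95.4, 150 and 118, and Ndufaf5 was over the floor on 3 arrays. Ndufaf3 read 270, 185, 344, 220, 253 and 282 and Sdhaf4, a factor for complex II, read 183, 129, 267, 156, 181 and 227, both highest on the AdOVA array.

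Probe sets of a gene did not always give the same sign. Of 42 genes with several measured probe sets, 6 had probe sets with AdOVA differences of opposite sign: Atp5a1, Cox5b, Ndufa12, Ndufab1, Ndufs4 and Uqcrq. For Cox5b the brightest probe set read 1797, 1205, 1365, 2021, 1594 and 1941, where another read 1314, 804, 781, 489, 829 and 1384. For Ndufa12 a dim probe set read 53.8 to 87.3 over the arrays, highest on AdOVA+TNFa, while the brightest read 943, 658, 568, 312, 905 and 888 and fell with AdOVA (limma adjusted p = 0.029). For Uqcrq the brightest read 821, 462, 492, 296, 746 and 709, and 3 dim ones lay between 34.4 and 121. Of the 148 measured member probe sets, 26 have names ending in _x_at and 17 in _s_at, types that can also bind transcripts of related genes or pseudogenes.

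Genes for these subunits are known as targets of the transcription factors NRF1, the ETS factor GABP and YY1. Promoter sequences, 250 bases before to 50 after the start, were taken from RefSeq (GRCm38.p6) for 70 of the 84 measured genes and searched on both strands. The NRF1 motif (GCGC, any base, then TGCGC) was found in 16 promoters (22.9%), the ETS motif CCGGAAG in 19 (27.1%) and the YY1 motif ATGGCGG in 10 (14.3%). Among 7257 measured genes with a promoter the shares were 10.4%, 17.9% and 7.99%, and among all 27025 promoters 4.78%, 9.12% and 4.19%. Of the 18 genes that fell with AdOVA and have a promoter, 5 held the first, 4 the second and 2 the third. The 52 other members held them in 11, 15 and 8 cases (21.2%, 28.8% and 15.4%, against 27.8%, 22.2% and 11.1% of the genes that fell). The stretches below are the 150 bases before the start of the 6 fallen genes with a match there, 5′ to 3′ along the gene, with matches on either strand in capitals, and no match overlaps another in them. They show where the motif letters lie in members whose signals moved together. Atp5h and Sdhd hold both an NRF1 and an ETS match, Atp5g2 and Ndufa8 an NRF1 match, and Atp5e and Uqcr11 an ETS match. A match of letters does not show that a factor binds.
Atp5e, chr2:174464102-174464251, minus strand: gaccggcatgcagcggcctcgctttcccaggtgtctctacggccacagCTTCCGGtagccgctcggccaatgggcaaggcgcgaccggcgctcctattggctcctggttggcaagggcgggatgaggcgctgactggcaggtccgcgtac
Atp5g2, chr15:102671048-102671197, minus strand: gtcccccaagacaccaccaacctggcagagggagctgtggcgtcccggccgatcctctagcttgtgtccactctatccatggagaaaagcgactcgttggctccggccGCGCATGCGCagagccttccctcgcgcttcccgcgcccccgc
Atp5h, chr11:115419920-115420069, minus strand: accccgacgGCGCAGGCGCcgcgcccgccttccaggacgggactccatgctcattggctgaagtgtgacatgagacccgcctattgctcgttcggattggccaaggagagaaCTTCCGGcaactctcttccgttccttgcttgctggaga
Ndufa8, chr2:36049339-36049488, minus strand: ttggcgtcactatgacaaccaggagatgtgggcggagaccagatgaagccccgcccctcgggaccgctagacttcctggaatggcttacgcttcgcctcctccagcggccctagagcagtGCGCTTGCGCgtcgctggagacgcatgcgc
Sdhd, chr9:50603850-50603999, minus strand: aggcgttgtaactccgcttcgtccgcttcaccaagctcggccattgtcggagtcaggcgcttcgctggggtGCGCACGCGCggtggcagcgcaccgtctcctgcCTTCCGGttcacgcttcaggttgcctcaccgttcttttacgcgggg
Uqcr11, chr10:80406822-80406971, minus strand: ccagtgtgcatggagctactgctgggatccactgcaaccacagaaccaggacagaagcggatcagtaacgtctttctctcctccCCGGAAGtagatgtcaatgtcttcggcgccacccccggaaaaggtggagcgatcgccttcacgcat

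The next comparison asks what TNFa did in cells without virus and in cells with AdOVA. Its pairs use the same arrays as those of the first comparison, so it is not independent of that one. Members were lower with TNFa in both pairs for 121 of 148 probe sets (81.8%), against 23.5% of all measured probe sets. Without virus 131 members lay below 0 (against 45.5% of all measured probe sets) and 8 were at least 2-fold lower (against 1.05%), and with AdOVA 130 (against 44.2%) and 42 (against 3.32%). The median log2 difference was -0.52 for TNFa over untreated, within 1 hybridization time, and -0.70 for AdOVA+TNFa over AdOVA, which spans both. All measured probe sets had medians of 0.00 and 0.04. The limma fit called 0 members for this response (smallest adjusted p = 0.15), and among all measured probe sets 0.0268% rose and 0 fell. At an unadjusted p under 0.05 it found 84 members (56.8%), against 11.0% of all measured probe sets. Without the AdIkBa-SR array, which leaves the fitted TNFa differences unchanged, 21 members fell. The summed signal of the granulocyte markers, most of it from S100a8 and S100a9, was also lower with TNFa. It was 12804 against 19883 without virus and 9635 against 17555 with AdOVA (fitted median of 9 genes -0.74, none called). Only Ltf had a fitted difference above 0 (0.20), and the part of these markers in the result was not tested.

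By medians, differences with TNFa were smaller among the catalytic and core subunits than among the small ones, as a description by roles assigned after the values had been seen. For the mean of both pairs, the 16 probe sets of complex I core subunits had a median of -0.35 and the 49 of its accessory subunits -0.79. Of those 16, Ndufs8 supplied 6 and Ndufv1 and Ndufv2 3 each, so a few genes weigh heavily. In complex III the core and Rieske proteins had -0.19 (4 probe sets) and the small subunits -0.78 (11). In complex V the head had -0.15 (8), the stalk -0.76 (7), the c ring -0.86 (3) and the membrane accessory subunits -0.75 (8). Complex II, all of whose subunits take part in catalysis or anchoring, had -0.10. For AdOVA the same split was smaller in complex I (-0.59 and -0.62) and complex III (-0.54 and -0.60), and in complex V the head had -0.38, the stalk -0.77, the c ring -0.90 and the membrane accessory subunits -0.51.

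At least 2-fold lower in both pairs were 3 members, Uqcr11 and both probe sets of Ndufa5, against 0.168% of all measured probe sets. Ndufa5, an accessory subunit of the matrix arm singled out after its values were seen, read 247, 115, 139, 67.1, 173 and 181. Both TNFa arrays without the super-repressor were its lowest. By the mean of both pairs, the genes lowest with TNFa were Uqcr11, Atp5g1 and Ndufa3. The brightest probe set of Ndufa3, also of complex I, read 1486, 1021, 1388, 432, 1439 and 1270, so its low value lay on the AdOVA+TNFa array. At the other end stood Atp5b, Sdha and Uqcrc1, which were higher with TNFa in the AdOVA pair (2.8-fold, 1.5-fold and 1.5-fold) and within 1.2-fold without virus.

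**Figure D3:**
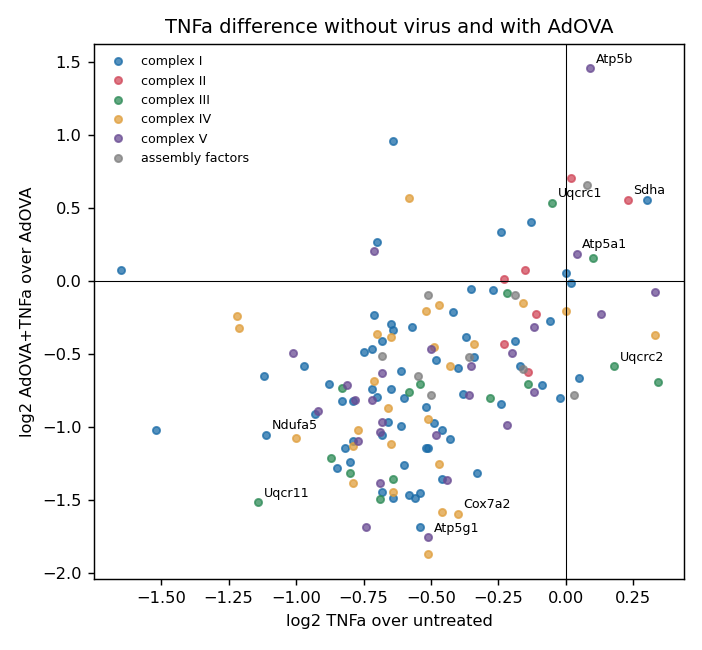
Log2 difference with TNFa for each of the 148 member probe sets, without virus (horizontal axis) and with AdOVA (vertical axis), coloured by complex. The 2 axes share no array. Of the points, 121 lie below 0 on both axes, while Atp5b, Sdha and Uqcrc1 lie above 0 on the vertical axis.

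In cells that carried the super-repressor, members were as often higher as lower with TNFa. The members' median log2 difference for AdIkBa-SR+TNFa over AdIkBa-SR was 0.00, with 74 of 148 below 0 (50.0%, against 47.7% of all measured probe sets), and 0 were 2-fold apart. The quartiles were -0.18 and 0.18. By complex the medians were 0.04, -0.24, -0.11, -0.03 and 0.03 for I to V. The limma fit called 0 members (4 at an unadjusted p under 0.05, 2.70%, against 5.06% of all), as it called 0 of all measured probe sets. The difference between this response and the shared TNFa response of the other cells had a median of 0.64 over the members, against -0.02 over all measured probe sets. That difference was tested too, and 0 members passed (24 at an unadjusted p under 0.05, 16.2%, against 4.91% of all), so it was not established for any single gene. The AdIkBa-SR array, on which the response rests, is the one with the other wash protocol, and the part of the wash in this result was not tested.

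The third comparison sets the super-repressor against the control virus at the same particle dose. It uses the AdOVA and AdOVA+TNFa arrays of the first comparison, so it is not independent of that one. Members low on those arrays tend to come out higher here. With TNFa, the members' median log2 difference was 1.02, and 74 of 148 (50.0%) were at least 2-fold higher with AdIkBa-SR, where 5.41% of all measured probe sets were. Only 13 lay below 0, against 58.4% of all. Both arrays of that pair share a hybridization time and a wash protocol. Without TNFa the median was 0.26, and 6 members (4.05%, against 3.82%) were at least 2-fold higher, a share near the background, with 42 below 0 (against 52.2%). In both pairs together 102 members were higher (68.9%, against 25.9%), and 4 of them, of Ndufs8, Uqcr11, Cox6c and Atp5g1, at least 2-fold (against 1.13%). With limma, 40 members of 29 genes rose with TNFa present (27.0%, against 2.18%) and 0 fell (against 1.56%). Without TNFa 1 rose (against 0.416%) and 0 fell (against 0.705%), with 21 at an unadjusted p under 0.05 (14.2%, against 13.8% of all measured probe sets, a share near the background). The count of 40 became 63 without the AdIkBa-SR array and 21 when arrays were set to equal medians. It was 0 under a floor of 25, a floor of 100 or no filter. Without the AdOVA+TNFa array 2 members rose, but that fit has 1 AdIkBa-SR difference for both TNFa states. Its AdOVA level rests on the AdOVA array without TNFa, so that count is for another comparison. Of the granulocyte markers all but Mpo were higher too, and the list's summed signal was 25031 with AdIkBa-SR+TNFa against 9635 with AdOVA+TNFa. Their fitted median was 1.24, 3 of 9 rose, and their part in the result was not tested. Setting arrays to equal medians moved the median of all probe sets for this pair from -0.12 to 0.06 and that of the members from 1.02 to 1.25.

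Of the members that rose, 18 belonged to complex I, 4 to complex III, 7 to complex IV and 11 to complex V, and none of 7 to complex II. Uqcr11 had the largest fitted difference, 2.87 ± 0.39 (limma adjusted p = 0.0007), followed by Atp5g1 at 2.16 ± 0.40 (adjusted p = 0.0082). Ndufb5, Ndufb10 and Ndufb11 of complex I rose by 1.32, 1.84 and 1.43 on the log2 scale (brightest probe sets, limma adjusted p = 0.034, 0.016 and 0.031). In complex IV, Cox5a (1.55, limma adjusted p = 0.019) and Cox4i1 (1.21, adjusted p = 0.045) rose, and Cox5b, Cox6a1 and Cox6c each rose by a probe set other than the brightest. In complex V, Atp5j of the stalk read 1248, 922, 1004, 392, 1234 and 1395 and rose by 1.60 (limma adjusted p = 0.017). Atp5d, Atp5e, Atp5g2, Atp5h, Atp5j2 and Atp5k were the others called there. The remaining genes were Ndufa4, Ndufa7, Ndufa12, Ndufa13, Ndufb6, Ndufb7, Ndufc1, Ndufc2, Ndufs8 and Ndufv2 in complex I, and Uqcrb and Uqcrq in complex III. Ndufa7 and Ndufc1 are among those that rose only by a probe set other than the brightest (brightest, limma adjusted p = 0.17 and 0.059). The member that rose without TNFa was Atp5b (1.74 ± 0.38, limma adjusted p = 0.037), whose signal was 398 with AdOVA and 1686 with AdIkBa-SR. Cox4i2, Cox8c and Atp5a1 had the lowest means over the 2 pairs and were lower with AdIkBa-SR than with AdOVA in both.

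**Figure D4:**
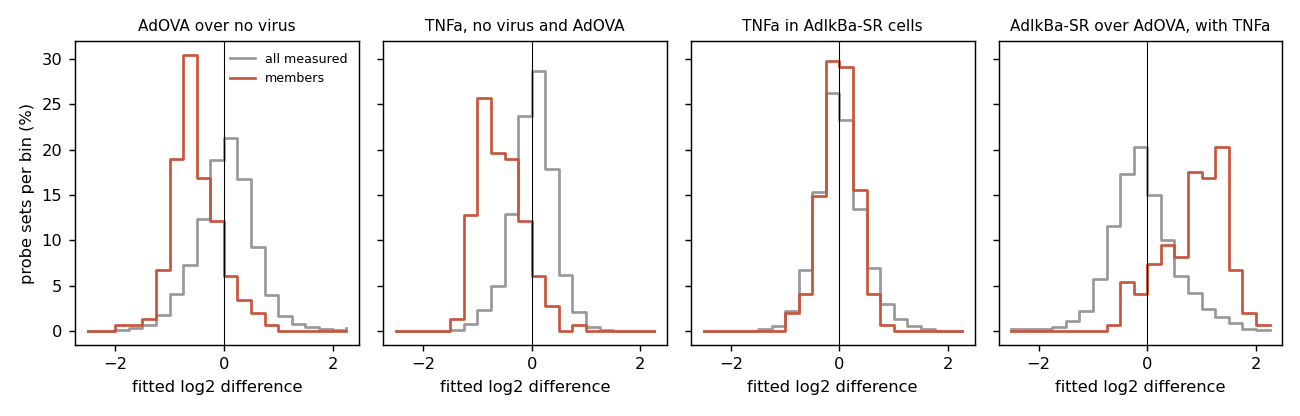
Share of probe sets (vertical axis, percent) by fitted log2 difference (horizontal axis, bins 0.25 wide) in 4 comparisons, for the 148 members and for all 14902 measured probe sets. The members are shifted to lower values for AdOVA (median -0.58) and TNFa (median -0.61), centred at 0.00 for TNFa in AdIkBa-SR cells, and shifted to higher values for AdIkBa-SR over AdOVA with TNFa (median 0.98).

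Against cells without virus, differences of the AdIkBa-SR arrays were smaller in size. These pairs also differ in the recorded exposure step and later culture, whose part was not tested. The members' median was -0.15 for AdIkBa-SR over untreated, with 121 of 148 below 0 (81.8%, against 50.4%), and 0.30 for AdIkBa-SR+TNFa over TNFa, with 33 below 0 (22.3%, against 49.2%). At least 2-fold differences were found for 1 lower member in the first pair (against 0.544%) and 6 higher ones in the second (against 3.10%). No member passed limma in either (3 and 25 at an unadjusted p under 0.05, which is 2.03% and 16.9%, against 2.36% and 9.67% of all measured probe sets), where 0.0134% and 0.0201% of all measured probe sets rose.

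Cytosolic ribosomal proteins had medians close to those of the members. They were taken by symbols that begin with Rpl or Rps, followed by a digit, by p and a digit or by a. That rule would also take Rps6k genes, which encode kinases. For cytosolic ribosomal proteins (86 measured probe sets) the medians over both pairs were -0.63 with AdOVA, -0.70 with TNFa and 0.70 for AdIkBa-SR over AdOVA, and the members had -0.58, -0.61 and 0.68. Mitochondrial ribosomal proteins (109) had smaller values of the same sign, -0.34, -0.35 and 0.34. Mitochondrial solute carriers (54), which move metabolites across the same inner membrane, had -0.05, 0.05 and 0.12. With limma, 17.4% of cytosolic ribosomal probe sets, 9.17% of mitochondrial ribosomal ones and 18.5% of carriers (10, of 2 genes) fell with AdOVA. Among members 16.9% fell, and among all measured probe sets 3.62%. For AdIkBa-SR over AdOVA with TNFa, 25.6%, 6.42% and 11.1% rose, against 27.0% of members and 2.18% of all measured probe sets. Members are short genes, with a median span of 7.44 kb against 23.6 kb over all measured probe sets with a span. The 2636 other probe sets with spans up to 8.12 kb, the lowest 20% of spans, had fitted medians of 0.07 for AdOVA, -0.11 for TNFa and 0.06 for AdIkBa-SR over AdOVA with TNFa.

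Around the chain, factors that assemble or feed it and carry its electrons had smaller medians. Of 48 such genes 36 were measured, with fitted medians of -0.22 for AdOVA and -0.22 for TNFa. Etfa, which passes electrons from fatty acid oxidation towards coenzyme Q, fell with AdOVA (391, 402, 247, 128, 318 and 238, limma adjusted p = 0.025). Uqcc2, an assembly factor of complex III, rose with AdIkBa-SR over AdOVA with TNFa (655, 429, 410, 232, 518 and 648, adjusted p = 0.023). Cytochrome c (Cycs) read 2122, 1343, 1597, 1077, 2289 and 1930, lowest with AdOVA+TNFa, and Cyc1, the cytochrome subunit of complex III that the symbol rule leaves out, read 1087, 890, 956, 777, 1028 and 1053. Neither was called. Atpif1, the inhibitor of ATP synthase, read 579, 358, 361, 115, 463 and 425. It fell with AdOVA (-1.16, limma adjusted p = 0.019) and rose with AdIkBa-SR over AdOVA with TNFa (1.65, adjusted p = 0.023).

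Of 25 transcription factors, coactivators and other regulators of mitochondrial genes, 22 were measured. Their fitted medians were -0.13 for AdOVA, -0.02 for TNFa, -0.11 for AdIkBa-SR over AdOVA with TNFa and -0.33 for TNFa in AdIkBa-SR cells, where the members had -0.58, -0.61, 0.98 and 0.00. Nrf1 read 248, 222, 244, 289, 241 and 161, Gabpa 90.5, 139, 133, 123, 123 and 95.0, and Tfam, which packages mitochondrial DNA, 138, 103, 116, 96.3, 99.3 and 78.8. Esrra read 120, 159, 248, 117, 107 and 144. The coactivator Ppargc1b read 102, 18.0, 20.6, 73.7, 133 and 67.1, and Ppargc1a was under the floor on every array. None of these was called in a contrast. Ssbp1, which binds single-stranded mitochondrial DNA, fell with AdOVA (545, 344, 335, 141, 507 and 410, limma adjusted p = 0.031) and rose with AdIkBa-SR over AdOVA with TNFa (adjusted p = 0.036). Myc fell with AdOVA (126, 127, 61.7, 42.4, 141 and 112, limma adjusted p = 0.032).

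Markers of other cells and of division moved as well. The summed signal of the 9 measured granulocyte markers was 19883, 12804, 17555, 9635, 23322 and 25031, lowest on the AdOVA+TNFa array, as for most members. S100a8 and S100a9 supplied most of it. They and Camp, Ctsg, Elane and Prtn3 were lowest on that array, while Ltf was lowest on the AdOVA array (387). Mpo and Ngp were lowest on the TNFa array (92.8 and 1324). Of the 9 granulocyte markers, 3 (Camp, Ngp and Prtn3) rose with AdIkBa-SR over AdOVA with TNFa, and none was called for AdOVA. Their fitted differences for AdOVA had a median of -0.24 and ran from -0.72 (Ctsg) to 0.55 (Mpo). The macrophage markers summed to 21606, 24118, 28895, 24470, 22381 and 21540, and none was called for AdOVA. Mast cell or basophil markers summed to 1564, 1325, 1130, 1146, 1850 and 1768, and of them Cpa3 fell with AdOVA (limma adjusted p = 0.043). The dendritic cell markers summed to 12162, 10088, 11371, 8903, 11429 and 14220, with a fitted median of 0.01 for AdOVA. Itgax, a defining surface marker, fell with AdOVA (699, 755, 247, 329, 664 and 847, limma adjusted p = 0.0026), and Ccr7, the receptor that guides mature dendritic cells to lymph nodes, rose (195, 177, 402, 516, 101 and 200, adjusted p = 0.012). Of 14 measured proliferation genes, 4 fell with AdOVA (Cdk1, Cks1b, Rrm2 and Top2a) and none rose. The part of cell composition, of division and of the 18S control in the members' differences was not tested.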

How the data were processed

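Total RNA (8 ug per sample) was used for 6 arrays, 1 per group, with groups taken from the sample titles. The values deposited by the authors are array intensity per probe set on a linear scale, which the submitters' processing notes credit to MAS5, with a version not given in the sources used here. The number of arrays limits the precision. Probe sets were named from the platform annotation given with the series, and 7 with several symbols were left out. Signals under the floor of 53.5 were set to it before log2 values were taken. limma 3.58.1 (R 4.3.3; lmFit, then eBayes with a trend) was fitted to 14902 probe sets with 5 coefficients, of which 3 stand for the virus states, 1 for TNFa in AdIkBa-SR cells and 1 for TNFa in all other cells, which leaves 1 residual degree of freedom, and p-values were Benjamini-Hochberg adjusted over all of them. Both AdIkBa-SR arrays are fitted exactly, so that degree of freedom is the difference between the TNFa response with AdOVA and without virus. A real difference of that kind counts as spread. A fitted difference need not equal that of a single pair of arrays. On simulated data for AdOVA, with 200 of 14902 probe sets changed, the fit found 74 when they changed 2-fold (1 false call), 199 at 4-fold (6 false) and 200 at 8-fold (16 false). The simulated noise was independent with 1 spread for all probe sets, and changes were placed only among those brighter than the median. TNFa, super-repressor and floor effects were absent, so these rates need not hold for the real arrays.

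A gene was read from its brightest measured probe set. The text names every member called, the lowest 3 and highest 2 genes of each complex for AdOVA, the lowest and highest 3 for TNFa and for AdIkBa-SR over AdOVA, all Sdh genes, isoforms, genes with probe sets of opposite sign, those without a measured probe set, and listed regulators. Members, lists and rules were chosen with earlier results of these data known. Alternatives were equal medians, quantile normalization, floors of 25 and 100, no filter, an additive model, the hybridization time as a block, 2 left-out arrays, means per gene and a 1.5-fold threshold. Summaries were made with Python 3.11.15, pandas 2.3.3 and numpy 2.4.6.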

Additional observations from a re-analysis of the deposited data

How the results depend on the processing

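No result changed direction under the alternatives run, but the counts of limma calls depended on them. Members fallen with AdOVA, 25 as reported, became 2 with quantile normalization, 2 with a floor of 25, 6 with a floor of 100, 0 without a filter, 4 with an additive model, 0 with the hybridization time as a block in it, 2 without the AdOVA+TNFa array, 40 without the AdIkBa-SR array and 6 with 1 mean per gene, where fewer features are tested. Members fallen with TNFa, 0, became 21 without the AdIkBa-SR array. Members risen with AdIkBa-SR over AdOVA with TNFa, 40, became 21 (equal medians), 1 (quantile), 0 (floor of 25, floor of 100, no filter, block), 4 (additive), 2 (without AdOVA+TNFa), 63 (without AdIkBa-SR) and 1 (genes). Without TNFa the 1 became 0 (equal medians, quantile, both floors, no filter, genes). The additive model (with or without the block) and both left-out arrays fit 1 AdIkBa-SR difference for both TNFa states. They therefore give no separate count without TNFa, and their counts beside the 40 are for that 1 difference. Only without the AdIkBa-SR array is it the difference with TNFa. Leaving out the AdIkBa-SR array keeps the fitted differences for AdOVA, for TNFa and for AdIkBa-SR over AdOVA with TNFa. It changes only the filter and the spread pooled over probe sets. Members 2-fold lower in both AdOVA pairs, 3, became 9 (equal medians), 5 (quantile) and 37 (at 1.5-fold), those for TNFa, 3, became 0 (floor of 100) and 46 (at 1.5-fold), and those higher with AdIkBa-SR in both pairs, 4, became 8 (equal medians), 2 (genes) and 33 (at 1.5-fold). The AdOVA median of complex I, -0.61, moved to -0.77 with equal medians, and without the AdOVA+TNFa array the medians of complexes I, III and V moved to -0.52, -0.35 and -0.47 from -0.61, -0.60 and -0.65. Apart from fewer features and arrays, the cause was not tested. No paired analysis was possible because each group has 1 array. Signals near the floor are noisy and their differences compressed, and values of different probe sets cannot be compared as levels.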
